A study of Homo sapiens with 16 samples.

Results

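The proteasome is the protease that degrades ubiquitin-tagged proteins. Its 20S core is a barrel of α rings (PSMA genes) and β rings (PSMB genes), and 3 β subunits carry the active sites. The 19S regulatory particle, with an ATPase base (PSMC genes and some PSMD genes) and a lid (the other PSMD subunits), binds, unfolds and feeds in ubiquitinated proteins. Interferon-responsive cells exchange the catalytic subunits for PSMB8, PSMB9 and PSMB10, which makes the immunoproteasome, and PA28 (PSME1 and PSME2, or PSME3) and PA200 (PSME4) are alternative caps. Transcripts of these genes were followed in C4-2B/Rx2dox cells, a human prostate cancer line of the LNCaP lineage in which doxycycline (Dox) induces the transcription factor Runx2.

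The members are the genes that the platform annotation names PSMA to PSMG followed by a number. They are 42 of the 16922 genes named on the array and have 56 of its 24526 probes. Each gene is given by its probe with the highest mean signal, and 10 genes had more than 1 probe. Of the subunits searched for, PSMA7, PSMB11, PSMC5, PSMD7, PSMD13 and PSMG4 were not named on the platform annotation used here.

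The cells carry the lentiviral vector pSLIK with a Flag-tagged mouse Runx2 cDNA under a Dox-dependent promoter, with rtTA3 expressed from the Ubi-c promoter, and were selected with hygromycin as a transduced population. The groups were Dox at 0.25 µg/ml for 48 h (day 2), vehicle for 48 h, Dox for 24 h (day 1) and vehicle for 24 h. Vehicle was distilled water. There were 4 biological replicates per group and 1 Illumina BeadChip array for each. All groups carry the vector and no group received Dox without an inducible Runx2, so Dox and Runx2 cannot be told apart on these arrays.

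Values are log2 intensities after background correction and quantile normalization, so 1 unit is a factor of 2. Levels of different probes are not compared. A call is an adjusted p under 0.05 in limma's fit over all probes (Benjamini-Hochberg, two-sided), and a probe counted as above background where the deposited detection p of that array was under 0.01.

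The median deposited signal was 107 to 113 on the Dox day 2 arrays, 108 to 111 on the vehicle day 2 arrays, 125 to 139 on the Dox day 1 arrays and 119 to 124 on the vehicle day 1 arrays. On each array 40.1% to 42.2% of the probes were above background. Arrays of a group correlated at 0.993 to 0.996. Both probes for human RUNX2 lay near background in all groups, 1 of them above background on 1 array and the other on none, and whether they match the mouse cDNA is not given in the sources used here. All 8 measured prostate epithelial markers were above background on all 16 arrays. None of the 6 measured leukocyte markers and none of the 7 fibroblast and endothelial markers was, and 5 and 4 of them were above background on no array. The summed level of the fibroblast and endothelial list was 7.78 to 7.96 on the Dox day 2 arrays, against 8.24 to 8.34 on the vehicle day 2 arrays. Its part in the results was not tested.

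Of the 42 members, 36 were above background on all 16 arrays. PSMD9, a chaperone of the 19S base, was above background on 14 arrays. PSMC6 and PSMB8 were above background on 2 arrays each, and PSMA8, PSMB9 and PSMF1 on none.

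RefSeq promoter sequences (GRCh38.p14) matched 37 of the members. Each was searched on both strands over the 250 bases before the start site of its promoter entry. Positions count from that site, which can lie inside the annotated gene, as for PSMG1. The searched letters were ACCACA, the Runx consensus; CACGTG, an E-box; CCAAT, the CCAAT box; and TGACNNNGC, the antioxidant response element, which NRF1 binds in proteasome genes. The antioxidant response element was in 11 of the 37 member promoters (29.7%), against 11.0% of 27305 promoters on the genome. The CCAAT box was in 15 (40.5%), against 33.0%. The Runx letters were in 3 (8.11%; PSMB5, PSMD6 and PSMD9), against 10.9%, and the E-box in 3 (8.11%; PSMB3, PSMD9 and PSME3), against 6.49%. A match of letters is a description and no site.

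Upstream sequences are shown for 4 members that changed with Dox and hold the antioxidant response element, with matches to any searched motif in capitals. PSMD3 and PSMG2, called lower on day 2, hold the element too and are not shown. They lie at chr21:39183515-39183701 (PSMG1, minus strand), chr14:24135944-24136193 (PSME1, plus strand), chr14:24146611-24146860 (PSME2, minus strand) and chr2:53970994-53971243 (PSME4, minus strand). The PSMG1 sequence ends at -64, where the annotated gene begins, and the others end at -1.
PSMG1: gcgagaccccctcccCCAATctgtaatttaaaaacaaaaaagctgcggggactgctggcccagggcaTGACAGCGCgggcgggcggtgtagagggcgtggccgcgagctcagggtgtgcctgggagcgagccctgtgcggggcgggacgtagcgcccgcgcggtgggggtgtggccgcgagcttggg
PSME1: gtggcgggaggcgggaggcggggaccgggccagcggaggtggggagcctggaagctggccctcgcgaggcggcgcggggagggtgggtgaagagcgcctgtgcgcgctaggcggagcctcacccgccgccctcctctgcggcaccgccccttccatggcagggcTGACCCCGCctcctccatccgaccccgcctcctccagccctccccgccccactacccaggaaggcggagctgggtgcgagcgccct
PSME2: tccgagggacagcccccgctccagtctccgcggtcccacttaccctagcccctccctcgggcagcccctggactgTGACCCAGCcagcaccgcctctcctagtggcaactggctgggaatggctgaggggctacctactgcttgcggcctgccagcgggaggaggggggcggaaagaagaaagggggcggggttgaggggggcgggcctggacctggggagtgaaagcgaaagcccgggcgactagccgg
PSME4: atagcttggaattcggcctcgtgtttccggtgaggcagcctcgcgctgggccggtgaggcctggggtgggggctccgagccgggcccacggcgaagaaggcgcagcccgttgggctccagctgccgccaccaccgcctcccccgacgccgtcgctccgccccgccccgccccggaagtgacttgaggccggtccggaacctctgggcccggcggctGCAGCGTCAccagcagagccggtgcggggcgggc
In PSMG1 a CCAAT box lies at -235 to -231 and an antioxidant response element at -183 to -175. The element lies at -86 to -78 in PSME1, at -175 to -167 in PSME2 and, on the other strand, at -34 to -26 in PSME4. None of these 4 windows holds the Runx letters.

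After 48 h of Dox, most proteasome transcripts changed little and a few changed clearly. PSMB7, the trypsin-like catalytic subunit of the constitutive core, was 1.76-fold higher, and PSMG1, a chaperone that starts assembly of the core, was 1.81-fold lower. The PA28 genes PSME1 and PSME2 and the ATPase PSMC4 were higher, and 10 members were lower, among them all 3 measured PSMG chaperones. The PSMG2 call was lost without any of 9 arrays in turn. In bulk cultures a change in the share of cells with a transcript and a change per cell cannot be told apart.

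In total 4 members were called higher, 10 lower and 28 neither, which is 33.3% called against 28.9% of all probes on the array (14.4% higher and 14.5% lower). The groups did not overlap for 13 members, and 28% of all probes did not overlap. Among the 36 members above background on all 16 arrays, 4 were higher and 9 lower (36.1%), against 59.9% of the 8620 probes that meet the same rule. The median log2 difference was -0.03 over the 42 members and -0.0070 over all probes. The median size of the difference, without sign, was 0.13 over the 36 members and 0.30 over the 8620 probes. Differences over 0.5 were found for 2 of the 36 (5.56%), against 30.5% of the probes, and none exceeded 1, against 10.2%.

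After 24 h, 4 members were higher, 4 lower and 34 neither (19% called, against 18.8% of all probes, 8.91% higher and 9.94% lower). The groups did not overlap for 9 members, against 21.3% of all probes. Among the 36 detected members, 3 were higher and 4 lower (19.4%, against 40.8% of the 8620 probes). The median size of the difference was 0.10, against 0.19. PSMB7 and PSMG1 had already moved, PSME4 and PSMD2 were higher, and PSMG3, PSME3 and PSMB10 were lower. The count of higher members on day 1 was 2 without Dox day 1 replicate 1 and 2 without vehicle day 1 replicate 1, since PSMB8 and PSMD2 missed the threshold there.

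**Figure D1:**
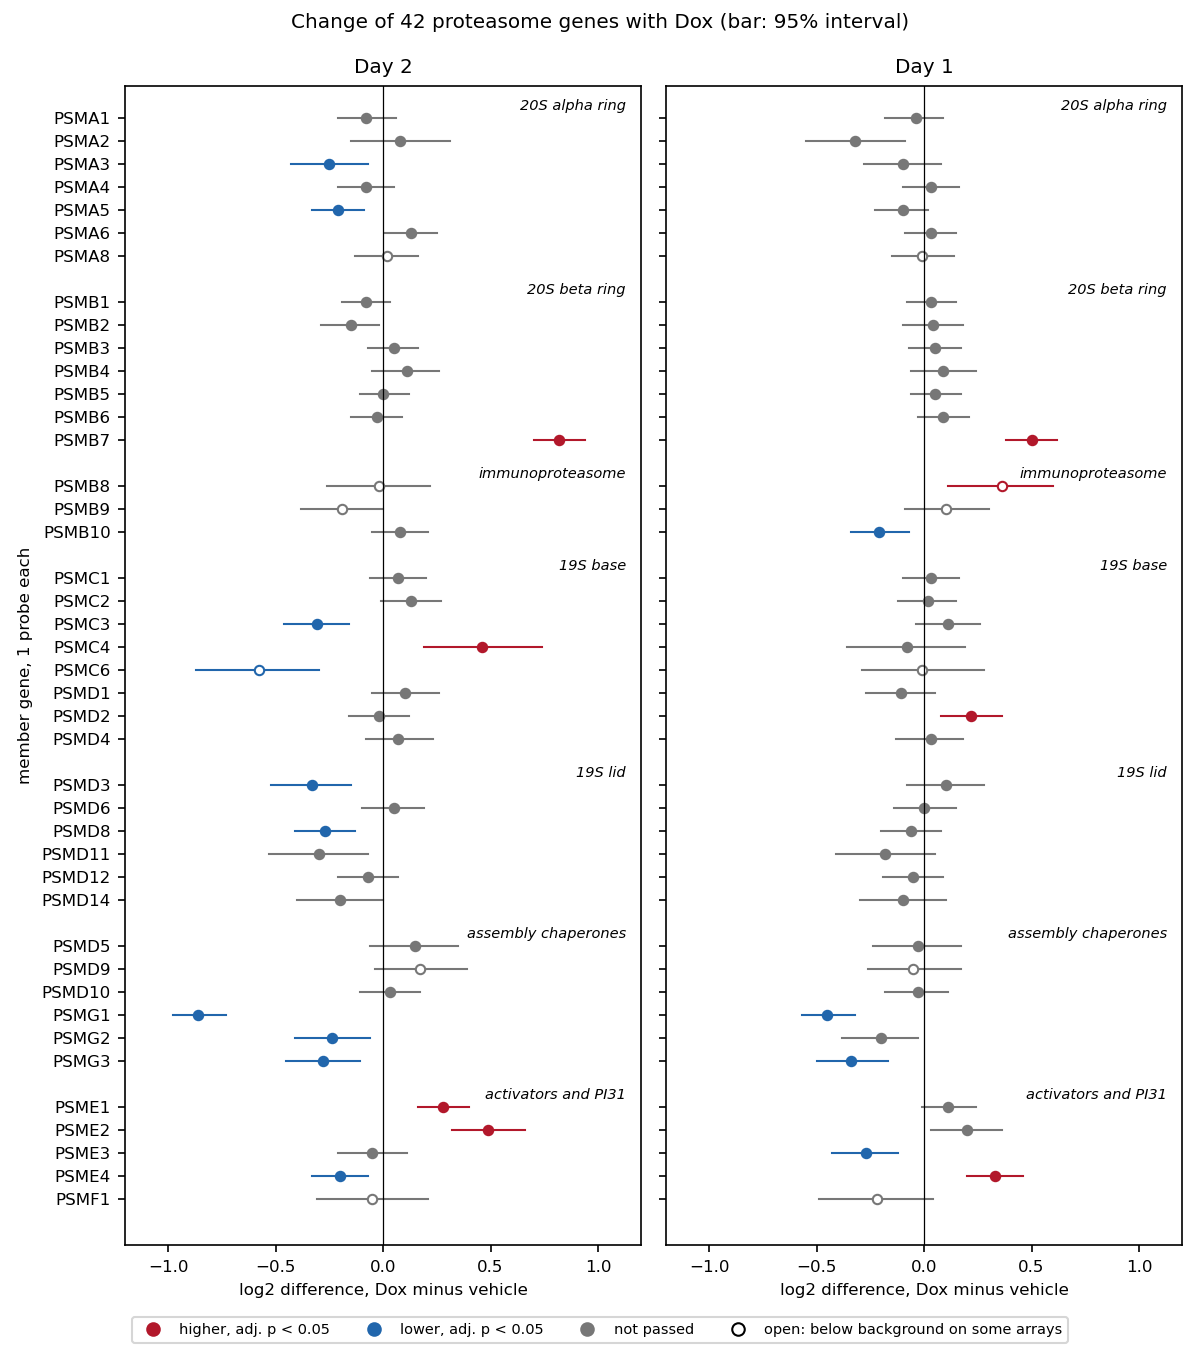
Log2 difference of Dox minus vehicle for the 42 members, 1 probe each, on day 2 (left) and day 1 (right), ordered by role. Points are limma estimates with 95% intervals, red higher and blue lower at adjusted p under 0.05, grey neither, and open points mark members below background on some arrays. PSMB7 and PSMG1 stand farthest from 0 on day 2, at 0.82 and -0.86, and most other members lie within 0.33 of it.

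The β ring had 1 called member of 7 on either day (14.3%, against 28.9% of all probes on day 2 and 18.8% on day 1). All 7 were above background on all arrays, where 59.9% and 40.8% of the 8620 probes were called. The called member was PSMB7, which carries the trypsin-like site (chr9:124353465-124415442). Its log2 intensity was 12.76, 12.75, 12.79 and 12.79 on the Dox day 2 arrays, against 12.04, 11.92, 11.87 and 11.99 on the vehicle day 2 arrays. On day 1 it was 12.59, 12.37, 12.48 and 12.44 with Dox, against 11.93, 12.00, 12.00 and 11.93 with vehicle. Every Dox array was above every vehicle array, and the Dox day 2 arrays were above the Dox day 1 arrays. The difference was 0.82 ± 0.057 (SE, n = 4 each) on day 2 (adjusted p = 2.4e-09 in limma) and 0.50 ± 0.057 on day 1 (1.42-fold, adjusted p = 3.6e-06). The difference grew by 0.31 ± 0.08 between the days (adjusted p = 0.016).

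The other catalytic subunits of the core stayed within a narrow interval. PSMB5, the chymotrypsin-like subunit, had 11.04, 11.24, 11.12 and 11.11 with Dox, against 11.11, 11.17, 11.14 and 11.08 with vehicle, on day 2. On day 1 it had 11.19, 11.13, 11.13 and 11.08 with Dox and 11.08, 11.00, 11.12 and 11.13 with vehicle. The groups overlapped on either day, with a 95% interval of the day 2 difference of -0.11 to 0.12 and of the day 1 difference of -0.06 to 0.17. PSMB6, the caspase-like subunit, had 12.83, 12.77, 12.73 and 12.63 with Dox, against 12.81, 12.77, 12.76 and 12.74 with vehicle, on day 2. On day 1 it had 13.00, 12.87, 12.94 and 12.83 with Dox and 12.75, 12.83, 12.87 and 12.83 with vehicle. Its intervals were -0.15 to 0.09 on day 2 and -0.03 to 0.21 on day 1. The 4 noncatalytic β subunits PSMB1 to PSMB4 had differences of -0.15 to 0.11 on day 2 and 0.03 to 0.09 on day 1, none of them called. The lowest on day 2, PSMB2 (adjusted p = 0.097 in limma), did not pass in 23 of 26 alternatives. It passed without vehicle day 2 replicate 2 (0.048), and the lowest adjusted p in any alternative was 0.013.

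The inducible subunits showed no common change. PSMB10, which replaces PSMB7 in the immunoproteasome, was the 1 inducible subunit above background on all arrays. It had 11.32, 11.20, 11.24 and 11.18 with Dox, against 11.10, 11.15, 11.16 and 11.20 with vehicle, on day 2, and 10.89, 10.94, 11.04 and 10.96 with Dox, against 11.16, 11.29, 11.01 and 11.19 with vehicle, on day 1. The groups overlapped on both days. It was not called on day 2 (0.08 ± 0.062, adjusted p = 0.42) and was lower on day 1 (-0.21 ± 0.062, adjusted p = 0.026, limma). The day 1 call was lost without any of 6 arrays in turn, Dox day 1 replicates 1, 2 and 4 and vehicle day 1 replicates 1, 2 and 4, with a largest adjusted p of 0.096.

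PSMB8, which replaces PSMB5, lay near background, with 5.26, 5.49, 5.27 and 5.14 on the Dox day 2 arrays and 5.36, 5.48, 5.18 and 5.22 on the vehicle day 2 arrays. After 24 h the values were 5.15, 4.87, 5.04 and 5.34 with Dox and 4.69, 4.85, 4.47 and 4.97 with vehicle, all 8 below the detection limit. The day 1 difference was called (0.36, adjusted p = 0.038), no fold is given, and the 3 other PSMB8 probes, above background on no array, had 0.02 to 0.06. The call was lost without Dox day 1 replicate 1, 3 or 4 or vehicle day 1 replicate 1 or 3, with a largest adjusted p of 0.14. PSMB9, which replaces PSMB6, had 4.86, 4.74, 4.85 and 4.60 with Dox, against 5.05, 5.03, 4.87 and 4.84 with vehicle, on day 2. The day 1 arrays gave 4.80, 4.74, 4.95 and 4.70 with Dox and 4.89, 4.78, 4.51 and 4.58 with vehicle. All were below the detection limit, so its level and any difference were not measurable here.

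The inducible minus the constitutive partner was compared within each array, which shows unequal change and not which transcript is more abundant. PSMB10 minus PSMB7 averaged -1.54 ± 0.069 with Dox and -0.80 ± 0.098 with vehicle (SD, n = 4 each) on day 2, and -1.51 ± 0.13 with Dox and -0.80 ± 0.13 with vehicle on day 1. The shift was -0.74 on day 2 and -0.71 on day 1, with no overlap of the groups on either day. The exact two-sided permutation test gave p = 0.029 on each day, the smallest that 4 against 4 can give, and 0.086 after adjustment over 6 tests. For PSMB8 minus PSMB5 the shift was -0.02 on day 2 and 0.30 on day 1, and for PSMB9 minus PSMB6 it was -0.16 and 0.01, with exact adjusted p of 0.17 to 0.97 and an inducible partner near or below background.

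**Figure D2:**
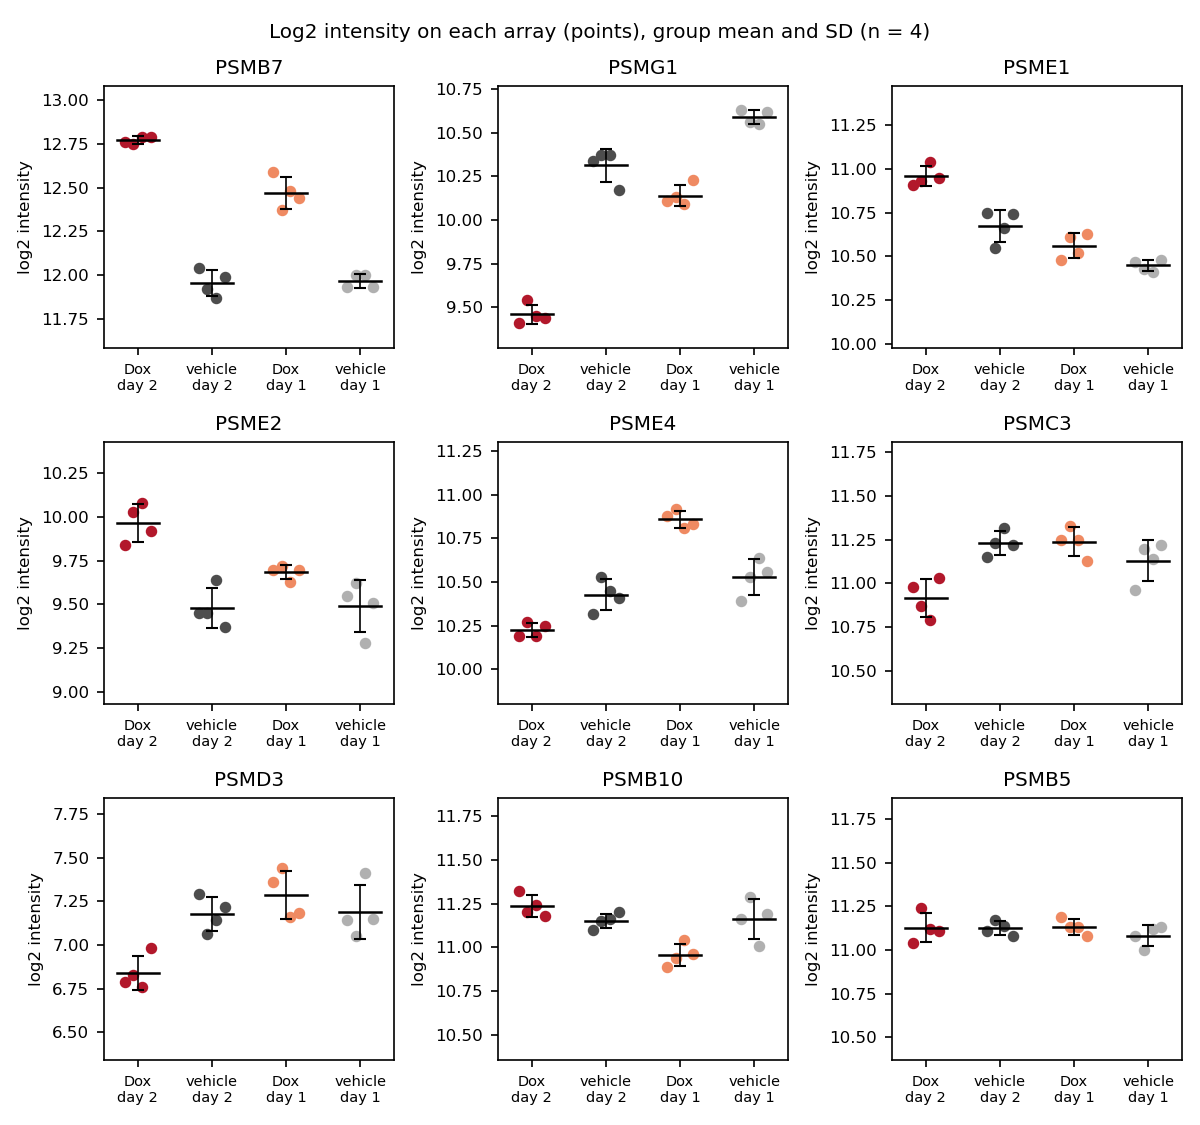
Log2 intensity of 9 members on each of the 16 arrays, with group means and SD (n = 4), in the order Dox day 2, vehicle day 2, Dox day 1, vehicle day 1; every panel spans 1.5 log2 units. PSMB7 and PSMG1 separate Dox from vehicle on both days, PSME4 lies above vehicle with Dox on day 1 and below it on day 2, and PSMB5 has overlapping groups.

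The α ring, which gates the core, had 2 lower members of 7 on day 2 (28.6%, against 28.9% of all probes). None was called on day 1, against 18.8% of all probes. Among the 6 members detected on all arrays the day 2 share was 33.3%, against 59.9% of the 8620 detected probes. PSMA5 differed by -0.21 (adjusted p = 0.0098) and PSMA3 by -0.25 (adjusted p = 0.032) on day 2. A second PSMA3 probe gave -0.20 (adjusted p = 0.11). The PSMA3 call was lost without Dox day 2 replicate 1 or 2 or vehicle day 2 replicate 1, 2 or 3, with a largest adjusted p of 0.12. The differences of the α ring ranged from -0.25 to 0.13 on day 2 and from -0.32 to 0.03 on day 1, when PSMA2 was the lowest and did not pass (adjusted p = 0.051). PSMA2 passed in 7 alternatives: without background correction (0.019), with the filter on dim probes (0.025), with the intensity trend (0.016), and without Dox day 2 replicate 1 (0.0061), Dox day 2 replicate 4 (0.034), vehicle day 2 replicate 4 (0.049) or Dox day 1 replicate 2 (0.042).

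In the 19S base, 1 ATPase was higher and 1 detected ATPase lower on day 2. Of its 8 measured members, 1 was higher and 2 lower (37.5%, against 28.9% of all probes). Among the 7 detected on all arrays the share was 28.6%, against 59.9% of the 8620 detected probes. PSMC4, an ATPase of the base, had 9.18, 9.48, 9.66 and 9.33 with Dox, against 9.12, 8.83, 8.89 and 8.96 with vehicle, on day 2. Day 1 arrays had 9.05, 8.88, 9.06 and 9.08 with Dox and 9.42, 9.18, 8.68 and 9.13 with vehicle. The day 2 groups did not overlap and the day 1 groups did. The day 2 difference was 0.46 ± 0.13 (1.38-fold, adjusted p = 0.0099, limma), and a second probe above background on all arrays gave 0.40 (adjusted p = 0.06). The change of the effect between the days was 0.55 ± 0.18 and did not pass (adjusted p = 0.067), but passed without Dox day 2 replicate 1 (0.038) and without vehicle day 1 replicate 3 (0.0049).

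PSMC3, another ATPase of the base, had 10.98, 10.87, 10.79 and 11.03 with Dox, against 11.15, 11.23, 11.32 and 11.22 with vehicle, on day 2. At 24 h it had 11.25, 11.33, 11.25 and 11.13 with Dox and 10.96, 11.20, 11.14 and 11.22 with vehicle. All 4 Dox arrays lay below the vehicle arrays on day 2, and the groups overlapped on day 1. The difference was -0.31 ± 0.071 on day 2 (adjusted p = 0.0023) and 0.11 ± 0.071 on day 1 (adjusted p = 0.38), and the change between the days passed (-0.42 ± 0.10, adjusted p = 0.0099). PSMC6 was also called lower on day 2 (-0.58, adjusted p = 0.0023), but it was below background on all Dox day 2 arrays and on 3 vehicle day 2 arrays, so no fold is given.

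PSMD2, a scaffold subunit of the base that binds ubiquitin receptors, had 11.05, 10.83, 10.86 and 10.86 with Dox, against 10.67, 10.60, 10.81 and 10.63 with vehicle, on day 1, a difference of 0.22 ± 0.067 (1.17-fold, adjusted p = 0.024). It had 10.78, 10.74, 10.76 and 10.78 with Dox and 10.76, 10.67, 10.79 and 10.91 with vehicle on day 2 (-0.02, adjusted p = 0.92). The day 1 arrays did not overlap, but the call was lost without Dox day 1 replicate 1 or vehicle day 1 replicate 1, 2 or 4, with a largest adjusted p of 0.091. PSMD1, the other large scaffold, had 10.00, 10.09, 10.11 and 10.06 with Dox and 9.96, 9.97, 10.09 and 9.84 with vehicle on day 2, and 10.08, 10.14, 10.06 and 10.14 with Dox and 10.46, 10.11, 10.16 and 10.13 with vehicle on day 1. It passed for Dox on neither day (0.10 and -0.11).

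Of the 6 lid members, all above background on all arrays, 2 were called lower and none higher on day 2 (33.3%, against 28.9% of all probes and 59.9% of the 8620 detected ones), and their median difference was -0.24. PSMD3, a structural lid subunit, had 6.79, 6.83, 6.76 and 6.98 with Dox, against 7.29, 7.06, 7.14 and 7.22 with vehicle, on day 2, and 7.36, 7.44, 7.16 and 7.18 with Dox, against 7.14, 7.05, 7.41 and 7.15 with vehicle, on day 1. The day 2 groups did not overlap. The difference was -0.33 ± 0.086 on day 2 (1.26-fold lower, adjusted p = 0.006) and 0.10 ± 0.086 on day 1 (adjusted p = 0.55). PSMD8 was also lower on day 2 (-0.27 ± 0.066, adjusted p = 0.0034). PSMD14, the lid's deubiquitinase, did not pass on either day (-0.20 and -0.10, adjusted p = 0.14 and 0.60). PSMD11 did not pass on day 2 (-0.30, adjusted p = 0.052) and passed without Dox day 2 replicate 3 (0.026), vehicle day 2 replicate 4 (0.0024) or vehicle day 1 replicate 2 (0.044). It also passed with the filter on dim probes (0.026), the intensity trend (0.038), the replicate block (0.048) and without background correction (0.037, with a difference of -0.16). The median of the lid on day 1 was -0.06, with none called.

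The PSMG chaperones, which build the core and are not part of the finished particle, were called lower in all 3 members on day 2 (median -0.28). On day 1, 2 of 3 were called lower (median -0.34). All 3 were above background on all 16 arrays. Of the 8620 such probes, 59.9% were called on day 2 and 40.8% on day 1, in either direction. Of these 8620, 2664 were called lower on day 2 and 1879 on day 1. Over all probes, 14.5% were lower on day 2 and 9.94% on day 1. PSMG1, which pairs with PSMG2 to assemble the α ring (chr21:39174769-39183514), had 9.41, 9.54, 9.45 and 9.44 with Dox, against 10.34, 10.37, 10.37 and 10.17 with vehicle, on day 2. After 24 h the values were 10.11, 10.13, 10.09 and 10.23 with Dox, against 10.63, 10.56, 10.55 and 10.62 with vehicle. Every Dox array was below every vehicle array of the same day. The difference was -0.86 ± 0.059 on day 2 (adjusted p = 2.1e-09, limma) and -0.45 ± 0.059 on day 1 (1.36-fold lower, adjusted p = 2.1e-05). A second PSMG1 probe gave -0.95 on day 2 (adjusted p = 6.2e-08) and -0.53 on day 1 (adjusted p = 0.00015). The difference widened by -0.41 ± 0.083 between the days (adjusted p = 0.0029), and by -0.42 on the second probe (adjusted p = 0.029).

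PSMG3 had 8.03, 8.16, 7.97 and 7.92 with Dox, against 8.19, 8.29, 8.28 and 8.44 with vehicle, on day 2, and 8.35, 8.26, 8.40 and 8.36 with Dox, against 8.62, 8.75, 8.49 and 8.86 with vehicle, on day 1. The groups did not overlap on either day. It fell by 0.28 on day 2 (adjusted p = 0.011) and by 0.34 on day 1 (adjusted p = 0.0048). PSMG2 was lower on day 2 with overlapping groups (-0.24 ± 0.084, adjusted p = 0.043) and did not pass on day 1 (-0.20, adjusted p = 0.11). Its day 2 call was lost without any of 9 arrays in turn: Dox day 2 replicates 1, 2 and 4, vehicle day 2 replicates 1, 3 and 4, and Dox day 1 replicates 2, 3 and 4, with a largest adjusted p of 0.15. The chaperones of the 19S base, PSMD5, PSMD9 and PSMD10, were called on neither day, with differences of 0.03 to 0.17 on day 2 and -0.05 to -0.03 on day 1. Other PSMD10 probes, above background on all arrays, gave -0.18 and -0.07 on day 2 and -0.16 and -0.21 on day 1, none called.

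The PA28αβ genes PSME1 and PSME2 encode the cap that opens the core without ATP and is known for its role in antigen processing. They are neighbours on chromosome 14, 4402 bases apart. PSME2 had 9.84, 10.03, 10.08 and 9.92 with Dox, against 9.45, 9.45, 9.64 and 9.37 with vehicle, on day 2. The day 1 arrays gave 9.70, 9.72, 9.63 and 9.70 with Dox and 9.55, 9.62, 9.28 and 9.51 with vehicle. Neither day's groups overlapped. The difference was 0.49 ± 0.078 on day 2 (1.40-fold, adjusted p = 7.5e-05) and did not pass on day 1 (0.20 ± 0.078, adjusted p = 0.098).

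PSME1 had 10.91, 10.93, 11.04 and 10.95 with Dox, against 10.75, 10.55, 10.66 and 10.74 with vehicle, on day 2. Day 1 arrays had 10.48, 10.61, 10.52 and 10.63 with Dox and 10.47, 10.43, 10.41 and 10.48 with vehicle. The day 2 groups did not overlap. The difference was 0.28 ± 0.059 on day 2 (1.21-fold, adjusted p = 0.001, limma) and did not pass on day 1 (0.11 ± 0.059, adjusted p = 0.23). The day 2 call was lost when arrays were scaled by their median instead of by quantiles (0.20, adjusted p = 0.062). A second PSME1 probe, above background on no array, gave -0.09.

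PSME4 encodes PA200, a nuclear cap, and was the one member called in opposite directions on the 2 days. It had 10.19, 10.27, 10.19 and 10.25 with Dox, against 10.32, 10.53, 10.45 and 10.41 with vehicle, on day 2. At 24 h it had 10.88, 10.92, 10.81 and 10.83 with Dox, against 10.39, 10.53, 10.64 and 10.56 with vehicle. The Dox arrays lay all below vehicle on day 2 and all above vehicle on day 1. The difference was -0.20 ± 0.062 on day 2 (1.15-fold lower, adjusted p = 0.017) and 0.33 ± 0.062 on day 1 (1.26-fold, adjusted p = 0.00075), and the change between the days was -0.53 ± 0.087 (adjusted p = 0.00042). The day 2 call was lost without vehicle day 2 replicate 2 (-0.17, adjusted p = 0.069).

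PSME3 encodes PA28γ, the nuclear form of PA28. It had 9.36, 9.28, 9.19 and 9.48 with Dox, against 9.36, 9.47, 9.25 and 9.43 with vehicle, on day 2. After 24 h the values were 9.38, 9.49, 9.35 and 9.28 with Dox, against 9.59, 9.57, 9.78 and 9.65 with vehicle. The day 1 groups did not overlap and the day 2 groups did. The difference was -0.27 ± 0.075 on day 1 (1.21-fold lower, adjusted p = 0.013) and -0.05 on day 2 (adjusted p = 0.74), and a second probe gave -0.22 on day 1 (adjusted p = 0.014). The day 1 call of the first probe was lost under median scaling (-0.23, adjusted p = 0.11). PSMF1, which encodes the inhibitor PI31, was above background on no array.

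The effect of Dox changed between the days for 6 members, 2 upward and 4 downward (14.3%, against 10.9% of all probes, 5.33% upward and 5.6% downward). Among the 36 detected members the share was 16.7%, against 23.9% of the 8620 probes. PSMB7 and PSMG1 had the same direction on either day and a larger difference on day 2. PSMC3 and PSMD3 were called lower on day 2 and not called on day 1, and the change was -0.42 for PSMC3 and -0.43 ± 0.12 for PSMD3 (adjusted p = 0.029). PSMB10 moved by 0.29 ± 0.088 (adjusted p = 0.044). Leaving out 1 array at a time ended the PSMD3 call in 10 of 16 cases (Dox day 2 replicates 1, 2 and 3, vehicle day 2 replicates 1 and 4, Dox day 1 replicates 1 and 2, and vehicle day 1 replicates 1, 2 and 4), with a largest adjusted p of 0.065. It ended the PSMB10 call in 13 of 16, every case but Dox day 2 replicate 4, Dox day 1 replicate 3 and vehicle day 1 replicate 3, with a largest adjusted p of 0.094. Among all probes called for this change, 48.8% were upward, and 34.6% under median scaling, where neither PSMB7 nor PSMB10 was called (adjusted p = 0.063 and 0.18).

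**Figure D3:**
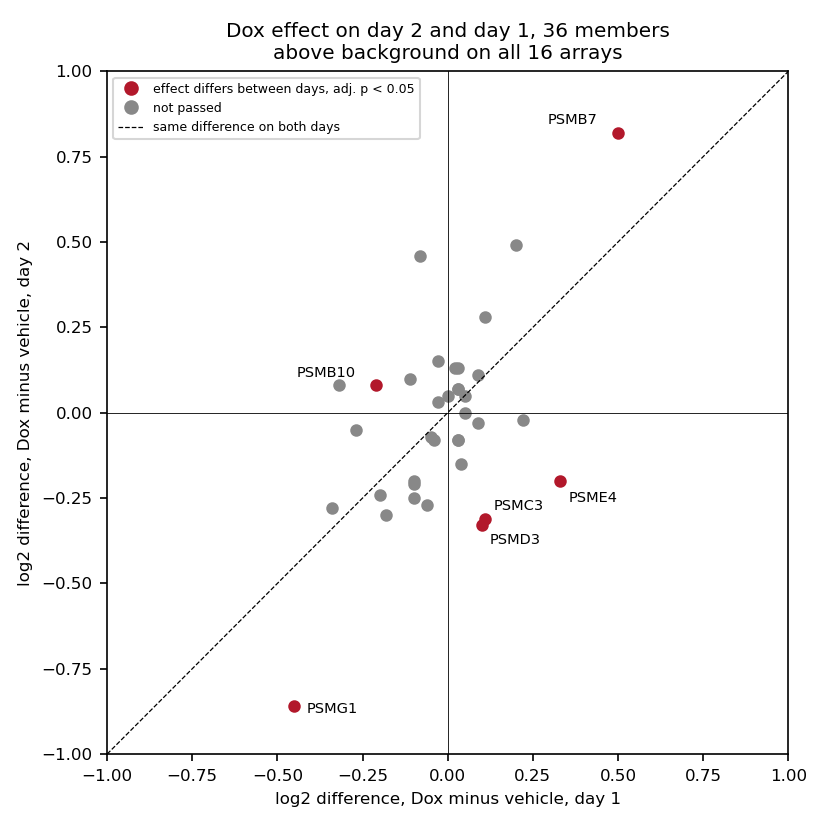
Log2 difference of Dox minus vehicle on day 2 (vertical) against day 1 (horizontal) for the 36 members above background on all 16 arrays; the dashed line marks equal differences. The 6 named members in red changed between the days at adjusted p under 0.05, PSMB7 and PSMG1 outward from 0 and PSME4, PSMC3 and PSMD3 from above 0 on day 1 to below 0 on day 2.

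Vehicle cultures changed over the second day too. This comparison and the next share arrays with those of Dox against vehicle. Against vehicle day 1, vehicle day 2 had 2 members higher and 5 lower (16.7%, against 10.6% of all probes, 5.3% higher and 5.27% lower). Among the 36 detected members 1 was higher and 5 lower, against 24.2% of the 8620 probes called. PSMG3 (-0.38, adjusted p = 0.0039), PSMG1 (-0.28, 0.0051), PSME3 (-0.27, 0.026), PSMD1 (-0.25, 0.036) and PSMC1, an ATPase of the base (-0.23, 0.02), were lower. PSME1 was higher (0.23, adjusted p = 0.018), as was PSMB8 near background (0.56, adjusted p = 0.0035). The PSMD1 call was lost without vehicle day 1 replicate 1 (-0.17, adjusted p = 0.10), the sample that stood highest for this gene, and without vehicle day 2 replicate 1, 2 or 4. PSME3 was lost without vehicle day 2 replicate 1 or 3 or vehicle day 1 replicate 3 or 4, PSMC1 without vehicle day 2 replicate 4 or vehicle day 1 replicate 3, and PSME1 without vehicle day 2 replicate 1 or 4. The lower count was 3 without vehicle day 2 replicate 1 or 4 or vehicle day 1 replicate 3. Of all probes called, 50.2% were higher under quantile normalization and 25% under median scaling, where PSME1 was not called (0.09, adjusted p = 0.57).

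Against Dox day 1, Dox day 2 had 5 members higher and 12 lower (40.5%, against 19.5% of all probes, 10.1% higher and 9.41% lower), and the groups did not overlap for 20 members (20.8% of all probes). Among the 36 detected members the share was 44.4%, against 42.5% of the 8620 probes. PSMG1 fell by 0.68 and PSME4 by 0.64, followed by PSMD3 (-0.44), PSMG3 (-0.33) and PSMC3 (-0.32). PSMC4 (0.40), PSME1 (0.39), PSMB7 (0.30), PSMB10 (0.28) and PSME2 (0.28) were higher. These counts depended on the scaling: under median scaling none was higher and 22 were lower, with all 12 lower calls among the 22, and the share of higher calls over all probes was 30.9% in place of 51.7%. The higher count was 3 without Dox day 2 replicate 3, which ended the calls of PSMC4 and PSME2. The PSMC4 call was also lost without Dox day 2 replicate 2 or any 1 of the 4 Dox day 1 arrays, with a largest adjusted p of 0.13.

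Genes that act with the proteasome were counted by list for the same Dox comparisons. Of 14 proteasome-associated factors, 2 were higher and 4 lower on day 2 (42.9%, against 28.9% of all probes), and 2 were higher and 2 lower on day 1 (28.6%, against 18.8%). Among the 11 detected on all arrays the shares were 45.5% and 36.4%, against 59.9% and 40.8% of the 8620 detected probes. UCHL5, a deubiquitinase of the 19S particle, differed by -0.64 on day 2 (1.55-fold lower, adjusted p = 1.5e-06) and -0.27 on day 1 (adjusted p = 0.013), and UBE3C, a proteasome-bound ubiquitin ligase, by -0.38 (adjusted p = 0.00047) and -0.26 (adjusted p = 0.014). The day 1 calls of both were lost under median scaling (adjusted p = 0.062 and 0.066), and that of UCHL5 also without vehicle day 1 replicate 1 (adjusted p = 0.05, not passed). The 2 higher on day 2, the ubiquitin receptor ADRM1 (0.15) and the 19S chaperone PAAF1 (0.19), were not called under median scaling or with the authors' normalized values. Leaving out 1 array at a time ended the ADRM1 call in 13 of 16 cases, with a largest adjusted p of 0.12. The PAAF1 call ended in 5 of 16, with a largest adjusted p of 0.085. FBXO7, which binds PI31, was higher on day 1 (0.37, adjusted p = 0.0024).

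Of 13 measured genes for ubiquitin, its shuttles and the VCP segregase, 3 were higher and 4 lower on day 2 (53.8%, against 28.9% of all probes), and 1 was higher and 3 lower on day 1 (30.8%, against 18.8%). Among the 12 detected on all arrays the shares were 58.3% and 33.3%, against 59.9% and 40.8% of the 8620 detected probes. NSFL1C, a VCP cofactor, was higher on both days (0.40 on day 2, adjusted p = 0.00024, and 0.38 on day 1, adjusted p = 0.00084). The shuttle genes UBQLN4 (-0.56, adjusted p = 1.4e-05), RAD23B (-0.31, adjusted p = 2e-04) and UBQLN2 (-0.24, adjusted p = 0.0016) were lower on day 2. VCP (0.24, adjusted p = 0.032) and the polyubiquitin gene UBB (0.18, adjusted p = 0.016) were higher on day 2, and neither call held under median scaling or with the authors' normalized values.

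NRF1 (NFE2L1) induces proteasome genes when the proteasome is inhibited, after processing by NGLY1. Of 9 measured genes of this list, 3 were higher and 3 lower on each day (66.7%, against 28.9% of all probes on day 2 and 18.8% on day 1). Among the 7 detected on all arrays the share was 71.4% on each day, against 59.9% and 40.8% of the 8620 detected probes. NGLY1 was higher (0.42 on day 2, adjusted p = 0.00011, and 0.29 on day 1, adjusted p = 0.0049), as were the stress-responsive genes HMOX1 (0.67 on day 2, adjusted p = 0.00021, and 1.01 on day 1, adjusted p = 6.4e-06) and SQSTM1 (0.48 on day 2, adjusted p = 0.00066, and 0.33 on day 1, adjusted p = 0.018). The SQSTM1 call on day 1 was lost without Dox day 1 replicate 1 or vehicle day 1 replicate 1 or 4, with adjusted p of 0.054 to 0.07. NFE2L3, a relative of NRF1, was 2.94-fold lower on day 2 (adjusted p = 4.1e-10) and 1.84-fold lower on day 1 (adjusted p = 1.9e-06), and NFE2L2 was lower on both days (-0.39 and -0.46). NFE2L1 itself did not pass (-0.17 on day 2 and 0.12 on day 1).

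The inducible subunits and PA28 are usually counted among interferon-responsive and class I antigen processing genes. Of 16 measured interferon signaling genes, 9 were higher and 2 lower on day 2 (68.8%, against 28.9% of all probes) and 5 were higher and none lower on day 1 (31.2%, against 18.8%). Of the 16, 6 were above background on all arrays, and 5 of these were higher on day 2 (83.3%, against 59.9% of the 8620 detected probes) and 2 on day 1 (33.3%, against 40.8%). IFI6 was 3.10-fold higher on day 2 (adjusted p = 1.1e-12) and 1.94-fold higher on day 1 (adjusted p = 5.2e-09). The 2 lower on day 2 were UBE2L6 (-0.80, adjusted p = 0.0023) and IFITM1 (-0.69, adjusted p = 2.9e-05). They were above background on 12 and 15 of the 16 arrays. GBP2, a guanylate-binding protein, was higher by at least 5.01-fold after 48 h (adjusted p = 9.3e-14). After 24 h it was at least 1.49-fold higher (adjusted p = 6.9e-08). These are bounds because no vehicle array was above background, and compare the Dox mean with the lowest detected signal of the vehicle arrays. Of 13 measured class I antigen processing genes, 3 were higher and 1 lower on day 2 (30.8%, against 28.9% of all probes) and 1 was higher and 1 lower on day 1 (15.4%, against 18.8%). Among the 8 detected on all arrays the shares were 37.5% and 12.5%, against 59.9% and 40.8% of the 8620 detected probes. TAPBP, which loads peptides onto class I molecules, was 2.11-fold higher on day 2 (adjusted p = 7.2e-07) and 1.5-fold higher on day 1 (adjusted p = 0.0011), while TAP2, a subunit of the peptide transporter, differed by -0.85 on day 2 (adjusted p = 2e-06), when 1 of 4 Dox arrays was above background, so that no fold is given. On day 1, with all arrays above background, it was 1.60-fold lower (adjusted p = 7e-05).

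**Figure D4:**
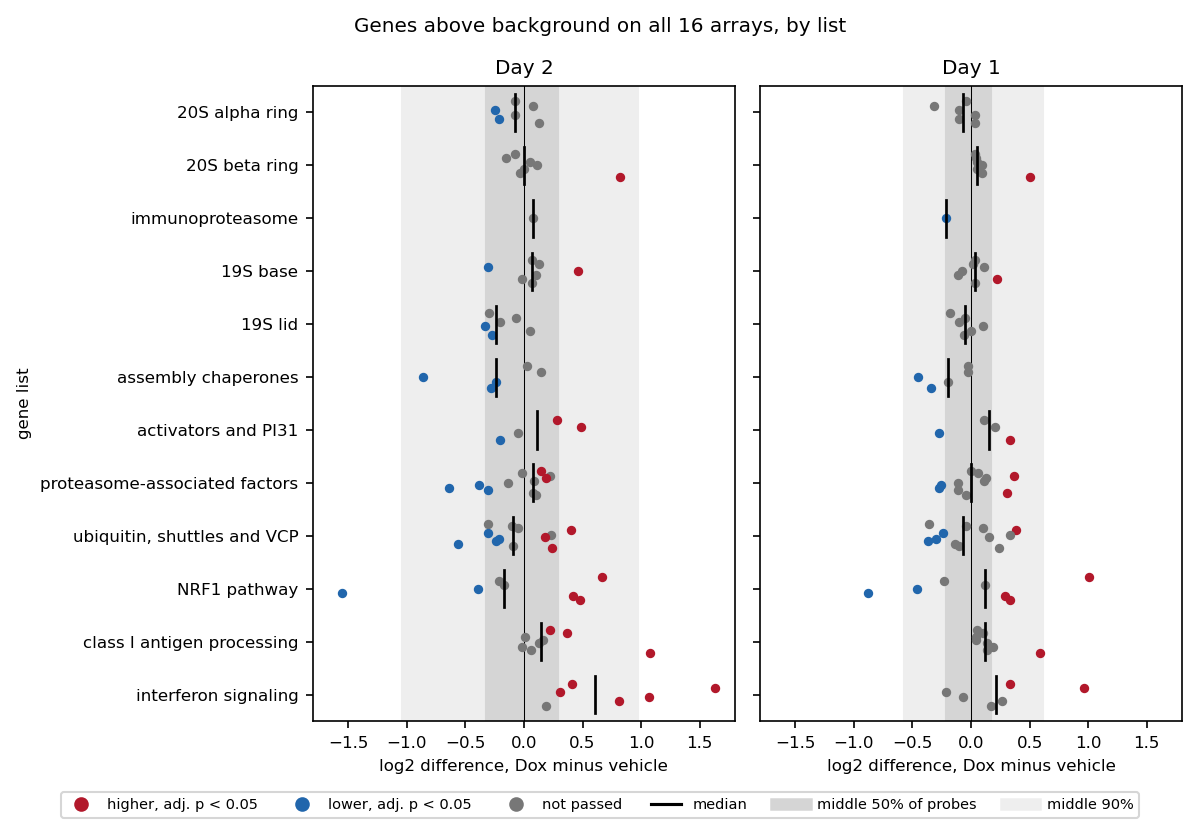
Log2 difference of Dox minus vehicle on day 2 (left) and day 1 (right) for genes above background on all 16 arrays, by list; black bars are list medians, red and blue points are higher and lower at adjusted p under 0.05. The grey bands span the inner 50% and 90% of the 8620 probes above background on all arrays, from -0.32 to 0.29 and from -1.04 to 0.97 on day 2; PSMB7 and PSMG1 lie outside the inner band and inside the outer one.

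Of 8 measured genes often used as controls, all above background on all arrays, 1 was higher and 4 lower on day 2 (62.5% called, against 59.9% of the 8620 detected probes). On day 1, 1 was higher and 2 lower (37.5%, against 40.8%). TUBB, a tubulin, was 2.30-fold lower on day 2 (adjusted p = 1e-11), and SDHA, a mitochondrial enzyme, was 1.41-fold higher (adjusted p = 5.7e-06).

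Position and upstream letters were described for the called members without a test. The 42 genes lie on 17 chromosomes, with 7 members on chromosome 14 and 6 on chromosome 17. Of the 9 members lower on day 2 with a promoter sequence, 6 held the CCAAT box and 4 the antioxidant response element, and of the 25 not called, 9 and 5 did. Of the 3 members higher on day 2 with a promoter sequence, PSME1 and PSME2 held the antioxidant response element and none held the CCAAT box. The Runx letters were in none of these 12 called members and in 3 of the 25 not called. PSMB7, the most raised member on day 2, had no usable promoter sequence and was not searched.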

How the data were processed

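RNA of 16 cultures was hybridised to Illumina human ref 8 version 3 BeadChips with 24526 probes. The authors deposited BeadStudio probe intensity values without background correction or scaling, together with a detection p-value per probe and array set against 664 negative controls. They also deposited log2 values after model-based background correction (MBCB) and quantile normalization, which served here as an alternative. The genome build of the probes is not given in the sources used here.

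The deposited intensities were corrected with limma's normal-exponential model (offset 16, with the background taken from the detection p-values), then quantile normalized and log2 transformed. The offset makes differences of dim probes smaller. One linear model with the 4 groups was fitted to all 24526 probes (R 4.3.3, limma 3.58.1), with 5 contrasts, moderated variances and Benjamini-Hochberg adjustment over all probes. The fit was tested on simulated data with independent noise on each array, so arrays that deviate together were not covered. Arrays have no depth, so precision rests on the replicate cultures, 4 per group. The limma p-values set each difference against the spread between cultures of a group, pooled over the 4 groups and moderated over all probes. Pairs of subunits were compared by exact permutation tests.

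The platform annotation gave 1 symbol for 21834 probes and none for 2692. Per-array values are given for PSMB5 to PSMB10, PSME1, PSME2 and the 4 detected members that were most raised and most lowered in each comparison. Other lists give up to 3 detected genes in each direction per Dox comparison. The members and lists were chosen with earlier results of these data known. Alternatives were another offset or no background correction, the authors' values, median scaling, a filter on dim probes, other probe choices, an intensity trend, the replicate number as a block and leaving out each array. Sequences, gene positions and neighbours came from RefSeq tables (GRCh38.p14), read with Python 3.11.15 and pandas 2.3.3.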

Additional observations from a re-analysis of the deposited data

Results flagged for a closer look

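In 3 of 68 sets of 4 replicates examined (4.41%), 1 array lay far from its group by Dixon's criterion, and chance gives about 1 in 20. PSMC4 was 8.88 in Dox day 1 replicate 2, with the others at 9.05 to 9.08. PSMD1 was 10.46 in vehicle day 1 replicate 1, with the others at 10.11 to 10.16. PSMD2 was 11.05 in Dox day 1 replicate 1, with the others at 10.83 to 10.86.

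The effect of Dox differed between day 2 and day 1 for 6 members by the interaction term in limma. The change was 0.31 for PSMB7, 0.29 for PSMB10, -0.53 for PSME4, -0.43 for PSMD3, -0.42 for PSMC3 and -0.41 for PSMG1. All 6 kept their sign in each alternative run. Those of PSME4, PSMC3 and PSMG1 passed in every one of them.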

How the results depend on the processing

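No called difference changed sign in any alternative. Of 262 differences of single genes examined, 58 had another sign in at least 1 alternative, and none of these 58 was called. PSMB7 (0.77 to 0.85) and PSMG1 (-0.93 to -0.78) kept their day 2 calls in all 26 alternatives run for each, as did PSME2, PSMC4, PSMC3, PSMD3, PSMD8, PSMA5 and PSMG3. With the authors' normalized values, 2 members were higher on day 1 (against 4), none changed upward between the days (0, against 2), and 1 was higher and 2 lower between the vehicle days (against 2 and 5). Median scaling gave 0 upward changes between the days, 1 higher member between the vehicle days, and 0 higher and 22 lower between the Dox days (against 5 and 12). The median change of the members was then -0.086 on day 2. Without background correction 4 members changed upward between the days. The higher count between the vehicle days was 1 with the filter on dim probes, with the median over a gene's probes, and when only members above background on all 16 arrays were counted, since PSMB8 dropped out. That last alternative, and those for genes of other lists, were chosen after seeing the data.

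Leaving out 1 array at a time gave 4 to 5 higher and 8 to 11 lower members on day 2, and 2 to 4 higher and 3 to 5 lower on day 1. It gave 1 to 4 upward and 3 to 4 downward changes between the days, 1 to 3 higher and 3 to 5 lower between the vehicle days, and 3 to 6 higher and 8 to 12 lower between the Dox days. Upward changes between the days were 4 without vehicle day 1 replicate 3, and 1 without any of 12 others: Dox day 2 replicates 2 and 3, all 4 vehicle day 2 arrays, Dox day 1 replicates 1, 2 and 4, and vehicle day 1 replicates 1, 2 and 4. The cause was not tested.

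Replicate numbers did not pair the cultures by the rule used: arrays of the same number deviated together (r above 0.1) in 8 of 24 pairs. Replicate 1 held 5 of these 8, out of its 6 pairs (r = -0.0377 to 0.526). Replicates 2, 3 and 4 held 1 each, and 4 of 16 arrays correlated best with their own number. With the replicate block 1 member changed upward between the days, 3492 probes were higher and 3539 lower on day 2, and the day 1 call of PSMB10 (adjusted p = 0.051) and the day 2 calls of PSMA3 (0.05), ADRM1 and VCP were lost in limma. Calls of PSMB10 and PSMD3 between the days, of PSMD1 between the vehicle days, and of PSMA3, PSMB6, PSMC1 and PSMC4 between the Dox days were lost too. PSMD11 on day 2 (0.048) and PSMC6 between the days (0.028) were called with it.

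Dim probes limit what can be said of PSMB8, PSMB9, PSMC6, PSMA8 and PSMF1, and with 4 arrays per group some small differences can be missed.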
